A study of Mus musculus with 18 samples.

Results

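The genes described here are 7 that serve the folding, transport or signaling platform of the endosomal Toll-like receptors (TLRs): Unc93b1, Cnpy3, Ap3b1, Bloc1s1, Slc15a4, Pikfyve and Lrrc25. They were taken by symbol from the 23420 genes that each of 18 libraries listed, and all 7 were found and were high enough to be tested in every comparison. RNA was sequenced from splenic B cells of MRL/lpr mice aged 5 to 7 weeks, a lupus-prone strain in which every animal carries the Fas lpr mutation. The cells had been enriched with beads by removing cells that bore CD43, CD4, CD8, CD11b, CD11c or Gr-1, and were cultured for 4 h with or without an agonist, with 3 libraries in each of 6 groups. In the first arm all mice were female and Tlr7-/-. Its controls are labelled Tlr9+/- Tlr7-/- (Tlr9het), although the protocol text calls them Tlr9-/- Tlr7-/-, and the sample titles were followed. Its test genotype was Tlr997 Tlr7-/- (Tlr997), homozygous for a CRISPR/Cas9 allele in the Tlr9 locus that joins the TLR9 ectodomain and transmembrane segment to the TIR signaling domain of TLR7. Both were left unstimulated or given 10 µg/ml of the TLR9 agonist CpG. In the second arm male Tlr779 Tlr9-/- mice (Tlr779), with the TIR domain of TLR9 in the Tlr7 locus, were left unstimulated or given 5 µg/ml of the TLR7 agonist CL097. Wild-type controls of that arm were not analysed here. Both chimeric alleles keep the native TIR sequence behind an inserted stop codon, so reads on both the inserted and the native TIR sequence count toward the receptor genes.

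Endosomal TLRs are made in the endoplasmic reticulum and work only after they reach an acidic endolysosome. CNPY3 assists the chaperone GP96 (Hsp90b1) in folding them, and UNC93B1 binds the folded receptors and escorts them out of the endoplasmic reticulum. Adaptor complexes such as AP-3 then sort the receptors between endosomes, while BLOC-1 and BORC, which share the subunit BLOC1S1, act in cargo sorting and in moving lysosomes. SLC15A4 is a lysosomal histidine and oligopeptide transporter that also serves as a platform for IRF5 activation, and PIKFYVE is the lipid kinase that controls endolysosome identity and size. LRRC25 is not a trafficking protein. It is a leucine-rich repeat membrane protein known from myeloid cells and described as a brake on NF-κB and on RIG-I signaling.

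The 10 B-cell markers summed to between 2284 and 8584 CPM (counts scaled to a common library total) in every library. The sum was 6587 to 8584 CPM in the unstimulated libraries and 2284 to 4210 CPM in those with agonist. Summed markers of macrophages and monocytes reached 94.98 to 474.9 CPM, those of neutrophils 20.7 to 137.8 CPM, those of T cells 52.9 to 122.5 CPM, those of dendritic cells 33.1 to 101.0 CPM, those of NK cells 4.0 to 15.9 CPM and those of erythroid cells 108.4 to 3863 CPM. Among the T-cell markers Lck was at 5.455 to 6.619 log2 CPM, and none of the others passed 2.724. In such bulk RNA, fewer cells of a type and less RNA per cell cannot be told apart. The files held normalized log2 CPM and no counts, so the depth of each library is unknown. The protocol names 3 mice per genotype without tying libraries to mice, so p-values measure the spread between 3 libraries, which may be technical. Replicate 3 of unstimulated Tlr997 stood farthest from its group, with Pearson's r of 0.944 and 0.955 to the other 2 libraries across genes.

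After 4 h with CpG, the control cells held less mRNA for UNC93B1, AP3B1, SLC15A4 and BLOC1S1, more for LRRC25, and close to their resting amount of CNPY3 and PIKFYVE. Slc15a4 moved farthest, to 31.6% of its unstimulated level. Calls required limma's adjusted p (Benjamini-Hochberg over all genes tested) to lie under 0.05 and the log2 fold change to lie beyond 0.5 in either direction. By that rule 5 of the 7 genes changed in Tlr9het, 1 upward and 4 downward, where 57.8% of all 11494 genes tested were called, 29.7% upward and 28.2% downward. In Tlr997 the count was again 1 upward and 4 downward, where 55.6% of all genes were called, 29.6% upward and 26% downward. With CL097 in Tlr779, 1 gene rose and 3 fell, where 46.3% of 11082 genes were called, 22.7% upward and 23.6% downward. Agonist thus moved about as large a share of all genes as of these 7, and the counts by themselves do not set them apart. The median log2 fold change of the 7 was -0.61 in Tlr9het with CpG, beside 0.04 over all genes, -0.73 in Tlr997, beside 0.07, and -0.36 in Tlr779 with CL097, beside -0.02.

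**Figure D1:**
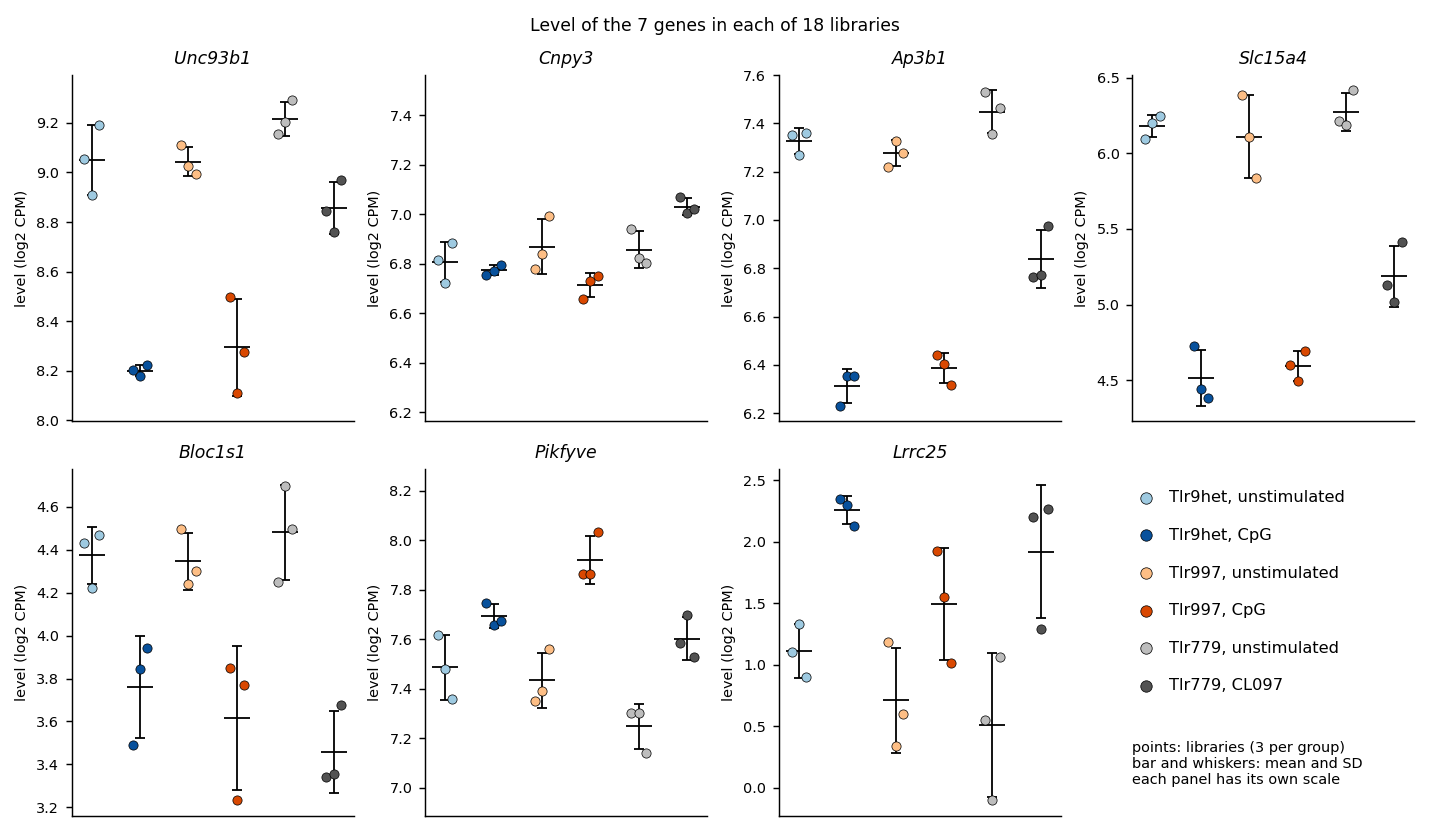
Level in log2 CPM of each of the 7 genes (1 panel each, with its own vertical scale) in 18 libraries, by group. Points are libraries, the horizontal bar and whiskers are the mean and SD of 3. Unc93b1, Ap3b1, Slc15a4 and Bloc1s1 were lower with agonist in every library of each genotype, Cnpy3 stayed between 6.66 and 7.07, and Lrrc25 ran from -0.10 to 2.35.

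Unc93b1, the receptor chaperone, was the most abundant of the 7 in CPM per 1000 exon bases, a scale that corrects for transcript length. On it, unstimulated Tlr9het held 235 ± 22.9 CPM (SD, n = 3) of Unc93b1, 52.9 ± 2.91 of Cnpy3, 39.95 ± 1.43 of Ap3b1, 26.6 ± 1.38 of Slc15a4, 22.7 ± 2.05 of Bloc1s1, 15.8 ± 1.42 of Pikfyve and 1.14 ± 0.17 of Lrrc25. With CpG the order changed in the middle, since Pikfyve at 18.2 ± 0.61 then stood above Bloc1s1 at 14.9 ± 2.36 and Slc15a4 at 8.42 ± 1.11. The lengths were the merged exons of basic protein-coding transcripts in GENCODE, which need not be the models the authors counted over.

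**Figure D2:**
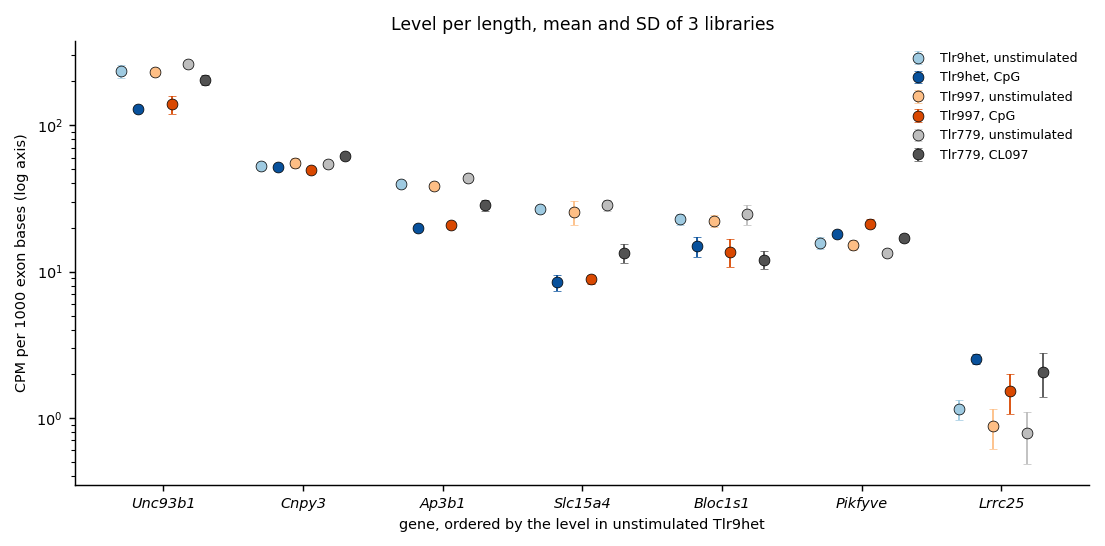
CPM per 1000 exon bases (logarithmic vertical axis) of the 7 genes, ordered by their level in unstimulated Tlr9het. Points are group means and whiskers the SD of 3 libraries. Unc93b1 stood highest in all 6 groups and Lrrc25 lowest, and with agonist Slc15a4 and Bloc1s1 dropped below Pikfyve.

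On the GRCm38 assembly (mm10, the build of the files), Unc93b1 lies at chr19:3935186-3949340, Cnpy3 at chr17:46735705-46752214, Ap3b1 at chr13:94358960-94566317, Bloc1s1 at chr10:128917882-128924035, Slc15a4 at chr5:127595664-127632897, Pikfyve at chr1:65186683-65278695 and Lrrc25 at chr8:70616155-70621483. Values are per gene, over exons. Bloc1s1 overlaps Rdh5, a retinol dehydrogenase gene on the same strand. Rdh5 lay between -3.02 and 0.15 log2 CPM over all libraries, against 3.23 to 4.70 for Bloc1s1. The 5′ end of Slc15a4 overlaps Glt1d1 on the opposite strand, which was at -5.42 to -2.94 log2 CPM.

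The promoters of Bloc1s1, Slc15a4, Ap3b1, Cnpy3 and Pikfyve are shown so that genes that fell with both agonists, the first 3, can be read beside genes that were not called, the last 2. These 5 are the members with an entry in the promoter table, which left out Unc93b1 and Lrrc25. RefSeq (GRCm38.p6) start sites were used, which for Slc15a4 and Bloc1s1 lie inside the longer GENCODE gene. Each line gives the 120 bases before the start, 5′ to 3′. Capitals mark CACGTG, the E-box read by the lysosomal regulators of the TFEB and MITF family among others, and the GC box GGGCGG, on either strand.
Bloc1s1, chr10:128923525-128923644, minus strand: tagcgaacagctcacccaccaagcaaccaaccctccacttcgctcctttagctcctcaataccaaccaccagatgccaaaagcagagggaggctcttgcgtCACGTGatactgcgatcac
Slc15a4, chr5:127617393-127617512, minus strand: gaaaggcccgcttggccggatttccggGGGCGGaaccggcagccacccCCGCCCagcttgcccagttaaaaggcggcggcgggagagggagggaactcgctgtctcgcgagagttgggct
Ap3b1, chr13:94358840-94358959, plus strand: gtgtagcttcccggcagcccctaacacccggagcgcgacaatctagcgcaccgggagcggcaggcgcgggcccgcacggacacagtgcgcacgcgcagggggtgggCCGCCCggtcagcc
Cnpy3, chr17:46752215-46752334, minus strand: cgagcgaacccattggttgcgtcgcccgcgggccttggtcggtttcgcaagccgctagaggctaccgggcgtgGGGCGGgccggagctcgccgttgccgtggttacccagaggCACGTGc
Pikfyve, chr1:65186565-65186684, plus strand: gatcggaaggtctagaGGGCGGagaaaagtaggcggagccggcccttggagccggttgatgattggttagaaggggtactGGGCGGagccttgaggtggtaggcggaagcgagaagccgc

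Over the 300 bases of each promoter window, 250 before and 50 after the start, CACGTG occurred in Bloc1s1 and Cnpy3 and in 7.15% of all 32851 promoters in the table. Bloc1s1 held 2 copies, beginning 19 and 3 bases before the start, so that the second runs past the printed bases. Both copies had the longer form TCACGTGA, which contains CACGTG and was found in 0.974% of promoters. The GC box was found in Pikfyve, Slc15a4, Ap3b1 and Cnpy3 and in 35.7% of promoters. CCAAT occurred in Pikfyve, Bloc1s1 and Cnpy3 (37.4% of promoters) and the ETS motif CCGGAAG in Bloc1s1, Ap3b1 and Cnpy3 (8.86%). An interferon-stimulated response element (3.44% of promoters) and a κB motif (1.47%) were in 0 of the 5 windows. Motifs were searched on both strands, and a match describes letters only. CACGTG was in 1 gene that fell, Bloc1s1, and in 1 that was not called, Cnpy3.

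Unc93b1 stood at 9.05, 8.91 and 9.19 log2 CPM in the 3 unstimulated Tlr9het libraries and at 8.20, 8.18 and 8.22 with CpG. In Tlr997 it was 9.11, 9.03 and 8.99 without and 8.5, 8.11 and 8.27 with CpG. In Tlr779 it was 9.16, 9.2 and 9.29 without and 8.84, 8.76 and 8.97 with CL097. The groups with and without agonist did not overlap in any genotype, and unstimulated libraries of the 3 genotypes overlapped with their neighbours in rank. Here and below, overlap is only described, since its share over all genes was not worked out. Unc93b1 fell by 0.85 on the log2 scale in Tlr9het (SE 0.09, adjusted p = 1.28e-06), to 55.5% of the unstimulated level (95% interval 48.6 to 63.4%). In Tlr997 it fell by 0.75 (SE 0.09, adjusted p = 4.95e-06), to 59.5% (52.0 to 68.0%). With CL097 the log2 fold change was -0.36 (SE 0.08, adjusted p = 0.00369), under the fold that was required. The CL097 group ranked above both CpG groups and apart from them, but agonist, dose, receptor and sex differ between the arms, and no test was made.

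Cnpy3, the co-chaperone, was the steadiest of the 7. Its unstimulated levels were 6.82, 6.72 and 6.88 log2 CPM in Tlr9het, 6.78, 6.84 and 6.99 in Tlr997 and 6.94, 6.82 and 6.80 in Tlr779. With CpG they were 6.76, 6.77 and 6.80 in Tlr9het and 6.66, 6.73 and 6.75 in Tlr997, and with CL097 7.07, 7.01 and 7.02. The 2 groups overlapped in Tlr9het, whereas in Tlr997 all values with CpG were lower and in Tlr779 all values with CL097 were higher. The log2 fold change was -0.03 in Tlr9het (95% interval -0.17 to 0.10, adjusted p = 0.649), -0.16 in Tlr997 (-0.29 to -0.02, adjusted p = 0.044) and 0.17 in Tlr779 (0.02 to 0.33, adjusted p = 0.049), and none passed the required fold.

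The chaperones around them did not move together. Hsp90b1, the GP96 chaperone that CNPY3 assists, fell in each genotype, by 0.95 on the log2 scale in Tlr9het (adjusted p = 1.05e-07), by 0.82 in Tlr997 (adjusted p = 5.64e-07) and by 0.62 in Tlr779 (adjusted p = 0.000193). Of the 7 endoplasmic reticulum chaperones of TLRs listed, Cnpy3 included, 3 rose and 2 fell in Tlr9het, 2 rose and 2 fell in Tlr997, and 0 rose and 2 fell with CL097, with median log2 fold changes of 0.44, 0.31 and 0.17. The CNPY3 relative Cnpy4 fell farthest, by 1.61 in Tlr9het (SE 0.18), 1.20 in Tlr997 (SE 0.18) and 1.12 in Tlr779 (SE 0.13). Cnpy2 rose in Tlr9het by a log2 fold change of 0.67 (SE 0.10), and Lrrc59, a ribosome-binding endoplasmic reticulum protein, rose in Tlr997 by 0.60 (SE 0.14), a call that was lost without replicate 3 of unstimulated Tlr997 (0.37) and with library quality weights (0.42).

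Among the receptors that UNC93B1 escorts, 6 of 8 were high enough to be tested. Tlr9 rose with CpG in Tlr9het by a log2 fold change of 0.64 (SE 0.09, adjusted p = 2.46e-05) and was 0.27 (SE 0.09) in Tlr997. Tlr7 rose by 1.06 (SE 0.17, adjusted p = 7.56e-05) in Tlr9het and was 0.38 (SE 0.17) in Tlr997. These mice are labelled Tlr7-/-, and Tlr7 reads remained at 3.15 ± 0.42 log2 CPM in unstimulated Tlr9het beside 4.96 ± 0.20 in Tlr997, whose chimeric allele carries the Tlr7 TIR, and 6.88 ± 0.40 in Tlr779. Likewise Tlr779 mice, whose chimeric allele carries the Tlr9 TIR, are labelled Tlr9-/-. Tlr9 was at 7.24 ± 0.08 log2 CPM there without and 7.19 ± 0.27 with CL097, beside 7.37 ± 0.10 in unstimulated Tlr9het. From which allele these reads came was not tested. Tlr8, a close relative of Tlr7, was not called in any response and stood at 6.14 ± 0.74 in unstimulated Tlr9het, 6.09 ± 0.39 in Tlr997 and 0.42 ± 0.50 in Tlr779. Tlr12 fell by 3.10 in Tlr9het (SE 0.58) and by 2.78 in Tlr997 (SE 0.58), from 1.57 and 1.88 log2 CPM to -1.53 and -0.90. With 1 CPM added before the log, these falls were 1.49 and 1.58. Tlr13 fell with CL097 by 1.87 (SE 0.44), a call lost when low genes were kept (adjusted p = 0.0728). In all, 2 of the 6 rose and 1 fell in Tlr9het, 0 rose and 1 fell in Tlr997, and 0 rose and 2 fell in Tlr779.

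A list of 10 genes for endosomal sorting around UNC93B1, itself included, came from general knowledge, and binding to UNC93B1 was not checked for each. Of these 10, 1 rose and 3 fell with CpG in each genotype, and 0 rose and 1 fell with CL097. Sdcbp, which encodes syntenin-1, a scaffold that binds UNC93B1, fell by 1.64 in Tlr9het (SE 0.10, adjusted p = 4.25e-09), 1.5 in Tlr997 (SE 0.10, adjusted p = 1.25e-08) and 0.83 in Tlr779 (SE 0.11, adjusted p = 0.000403). Rab11fip3, an effector of recycling endosomes, rose with CpG by 0.97 (SE 0.17) in Tlr9het and 1.26 (SE 0.17) in Tlr997.

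Ap3b1, the large β subunit of AP-3, was at 7.35, 7.27 and 7.36 log2 CPM in unstimulated Tlr9het and at 6.23, 6.36 and 6.35 with CpG. In Tlr997 it was 7.22, 7.33 and 7.28 without and 6.44, 6.4 and 6.32 with CpG, and in Tlr779 7.53, 7.36 and 7.46 without and 6.77, 6.77 and 6.98 with CL097. No group with agonist overlapped its unstimulated group. Ap3b1 fell by 1.01 on the log2 scale in Tlr9het (SE 0.06, adjusted p = 2.76e-09), to 49.5% of the unstimulated level (95% interval 45.4 to 54.0%). It fell by 0.89 in Tlr997 (SE 0.06, adjusted p = 1.25e-08) and by 0.61 in Tlr779 (SE 0.08, adjusted p = 0.000365). The level with CL097 lay between and apart from the unstimulated and the CpG groups.

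The other AP-3 subunits split. Ap3m1, the widely expressed μ subunit, rose in each genotype, by log2 fold changes of 0.58 in Tlr9het (SE 0.09, adjusted p = 5.06e-05), 0.51 in Tlr997 (SE 0.09, adjusted p = 0.000156) and 0.56 in Tlr779 (SE 0.07, adjusted p = 0.000265). The Tlr997 call was lost without replicate 1 or 2 of the unstimulated group (0.47 and 0.46) or replicate 3 of the CpG group (0.48). Its counterpart Ap3m2, best known from neurons, fell by 2.61 (SE 0.18, adjusted p = 1.43e-08), by 2.35 (SE 0.18, adjusted p = 4.84e-08) and by 1.44 (SE 0.24, adjusted p = 0.00101). In CPM these 2 μ subunits moved from 5.48 ± 0.07 and 4.85 ± 0.08 log2 CPM in unstimulated Tlr9het to 6.06 ± 0.10 and 2.24 ± 0.33 with CpG. The δ subunit Ap3d1 fell by 0.65 (SE 0.06) in Tlr9het and had log2 fold changes of -0.47 in Tlr997 and -0.37 in Tlr779. The σ subunits Ap3s1 and Ap3s2 were not called in any genotype, with log2 fold changes between -0.40 and 0.38. Over the 6 tested AP-3 genes the median was -0.31 in Tlr9het, -0.28 in Tlr997 and -0.39 in Tlr779.

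Of the 7 tested subunits of AP-1, which sorts at the trans-Golgi network, 0 rose and 5 fell in Tlr9het, 0 rose and 2 fell in Tlr997, and 0 rose and 3 fell in Tlr779, with medians of -0.61, -0.36 and -0.31. Ap1b1 fell by 1.04 in Tlr9het (SE 0.08) and Ap1s2 by 1.24 in Tlr779 (SE 0.12). Of the 5 AP-2 subunits, which serve endocytosis at the plasma membrane, 0 were called by limma in any genotype, with medians of -0.34, -0.30 and -0.18. Of these 5, 4 had an unadjusted p under 0.05 in Tlr9het, 3 in Tlr997 and 4 in Tlr779. Among all genes tested, 8550 of 11494, 8404 of 11494 and 7263 of 11082 did, in the same order. These counts therefore do not set AP-2 apart.

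Bloc1s1 was at 4.43, 4.22 and 4.47 log2 CPM in unstimulated Tlr9het and at 3.49, 3.84 and 3.94 with CpG. In Tlr997 it was 4.50, 4.24 and 4.30 without and 3.85, 3.23 and 3.77 with CpG, and in Tlr779 4.25, 4.70 and 4.50 without and 3.34, 3.35 and 3.68 with CL097. All values with agonist lay under all values without, while the 3 agonist groups overlapped with their neighbours. Bloc1s1 fell by 0.61 in Tlr9het (SE 0.17, adjusted p = 0.00496), by 0.73 in Tlr997 (SE 0.17, adjusted p = 0.00159) and by 1.02 in Tlr779 (SE 0.16, adjusted p = 0.00073), to 65.3%, 60.3% and 49.2% of the unstimulated level. Without replicate 1 of Tlr9het with CpG the first of these was -0.48 and no longer past the required fold.

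Of the 8 BLOC-1 subunits, Bloc1s1 included, 1 rose and 2 fell in each genotype, and the medians were -0.02, 0.09 and -0.15. Bloc1s4 rose, by log2 fold changes of 1.88 in Tlr9het (SE 0.15, adjusted p = 1.01e-07), 1.12 in Tlr997 (SE 0.15, adjusted p = 1.87e-05) and 0.86 in Tlr779 (SE 0.20, adjusted p = 0.00684), the last lost when low genes were kept (adjusted p = 0.0537). Snapin, which like Bloc1s1 is shared with BORC, fell by 0.99 (SE 0.10), 0.90 (SE 0.10) and 0.71 (SE 0.08). The other 5 (Bloc1s2a, Bloc1s3, Bloc1s5, Bloc1s6 and Dtnbp1) were not called and lay between -0.33 and 0.18. Of the 8 BORC subunits, 0 rose and 3 fell in Tlr9het, 1 rose and 3 fell in Tlr997, and 0 rose and 3 fell in Tlr779. The BORC gene 2310045N01Rik (Borcs8) fell by 0.79, 0.95 and 0.77 in the same order. The BORC gene 2010012O05Rik (Borcs7) rose in Tlr997 by 0.53 (SE 0.09), a call lost without replicate 3 of unstimulated Tlr997 (0.49) and with library quality weights (0.48). The BORC genes Kxd1 and Loh12cr1 (Borcs5) were not called and lay between -0.42 and -0.07, and 2310047M10Rik (Borcs6) was not called at 0.19, -0.37 and -0.21. Of 5 subunits of BLOC-2 and BLOC-3, which act in the biogenesis of lysosome-related organelles, 0 rose and 3 fell with CpG in each genotype, and 0 rose and 2 fell with CL097, where Hps5 lay on the threshold at -0.50. Hps3 fell by 1.69 in Tlr9het (SE 0.11) and Hps6 by 1.01 in Tlr779 (SE 0.17).

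**Figure D3:**
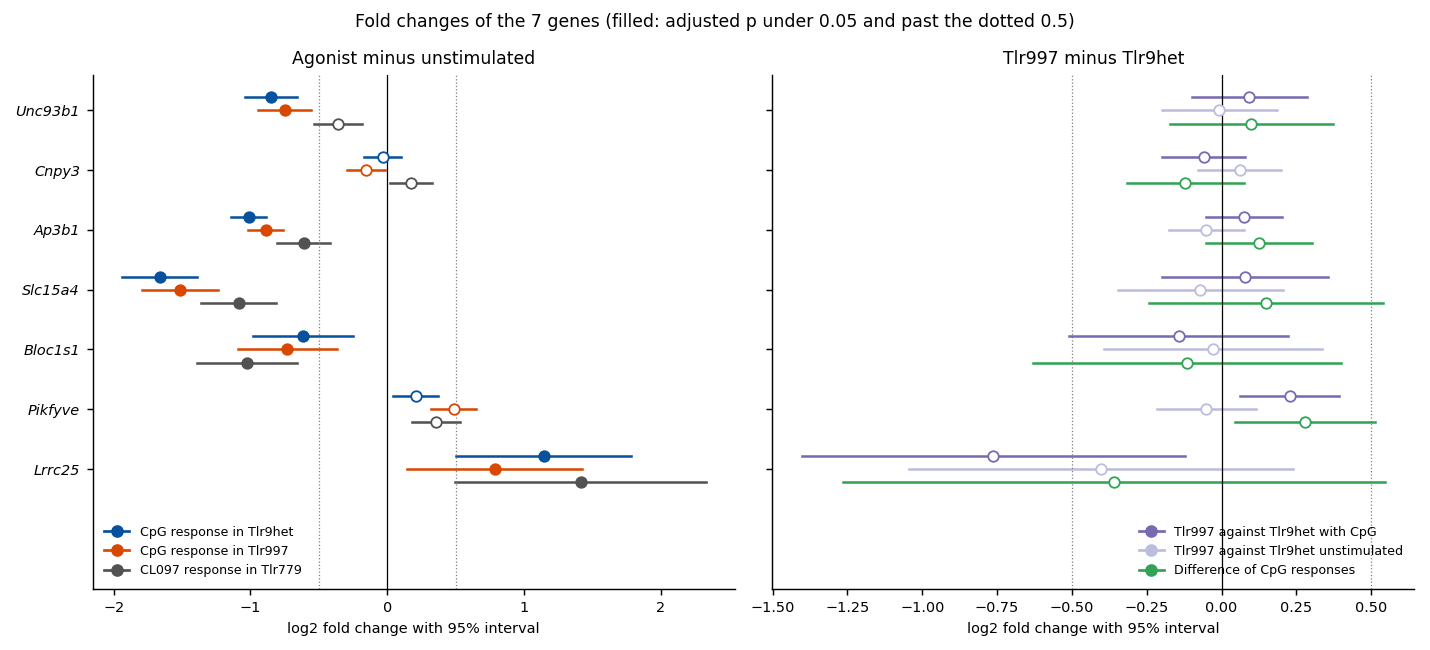
Log2 fold changes (horizontal axis) of the 7 genes with their 95% intervals, for agonist against unstimulated on the left and for Tlr997 against Tlr9het on the right, where the difference of CpG responses is Tlr997 minus Tlr9het. Filled points were called, and dotted lines mark a log2 fold change of 0.5 in either direction. Slc15a4 fell farthest, from -1.09 to -1.66, and no point on the right was called.

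Slc15a4, the lysosomal transporter, was at 6.10, 6.20 and 6.24 log2 CPM in unstimulated Tlr9het and at 4.73, 4.44 and 4.38 with CpG. In Tlr997 it was 6.38, 6.11 and 5.84 without and 4.60, 4.49 and 4.69 with CpG, and in Tlr779 6.22, 6.19 and 6.42 without and 5.13, 5.02 and 5.41 with CL097. Each agonist group lay more than its own range below its unstimulated group, and the CL097 group lay between the other 2 kinds and apart from them. Slc15a4 fell by 1.66 in Tlr9het (SE 0.13, adjusted p = 5.32e-08), to 31.6% of the unstimulated level (95% interval 26.1 to 38.2%). It fell by 1.52 in Tlr997 (SE 0.13, adjusted p = 1.59e-07), to 34.98% (28.9 to 42.4%), and by 1.09 in Tlr779 (SE 0.12, adjusted p = 0.000113), to 47.1% (39.0 to 56.9%).

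Of the 5 genes of the SLC15A4 axis, itself included, 1 rose and 2 fell in Tlr9het, 2 rose and 1 fell in Tlr997, and 1 rose and 2 fell in Tlr779. Irf5, the transcription factor activated on its platform, fell by 0.90 in Tlr9het (SE 0.07, adjusted p = 4.37e-08) and by 0.66 in Tlr779 (SE 0.10, adjusted p = 0.000547), and had a log2 fold change of -0.38 in Tlr997 (SE 0.07, adjusted p = 0.000187). The gene 5430427O19Rik, taken here from general knowledge as the mouse counterpart of the adaptor TASL, was at 0.39 (SE 0.09), 0.07 (SE 0.09) and 0.00 (SE 0.14) in Tlr9het, Tlr997 and Tlr779, under the required fold in each. Slc29a3, a lysosomal nucleoside transporter, rose by 0.66 (SE 0.08), 0.55 (SE 0.08) and 0.68 (SE 0.12). The paralog Slc15a3 rose in Tlr997 by 1.13 (SE 0.14, adjusted p = 5.19e-06) and was 0.45 (SE 0.14) in Tlr9het.

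Pikfyve was at 7.62, 7.48 and 7.36 log2 CPM in unstimulated Tlr9het and at 7.75, 7.66 and 7.67 with CpG. In Tlr997 it was 7.35, 7.39 and 7.56 without and 7.86, 7.87 and 8.03 with CpG, and in Tlr779 7.3, 7.3 and 7.14 without and 7.58, 7.70 and 7.53 with CL097. The groups did not overlap in any genotype, but the differences were small. The log2 fold change was 0.21 in Tlr9het (95% interval 0.04 to 0.37, adjusted p = 0.0264), 0.49 in Tlr997 (0.32 to 0.65, adjusted p = 6.97e-05) and 0.35 in Tlr779 (0.18 to 0.53, adjusted p = 0.00405), all under the required fold. The Tlr997 value passed it with library quality weights (0.52) and without replicate 3 of the unstimulated group (0.55) or replicate 1 or 2 of the CpG group (0.51 in each case).

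Of the 9 genes of the PIKfyve complex and of phosphoinositide supply, Pikfyve included, 0 rose and 4 fell in each genotype. In the complex itself, the phosphatase Fig4 fell by 0.82 in Tlr9het (SE 0.06), 0.79 in Tlr997 (SE 0.06) and 0.60 in Tlr779 (SE 0.07), while the scaffold Vac14 had log2 fold changes of 0.43, 0.33 and 0.18 and was not called. The lipid phosphatase Mtmr3 fell by 1.41 in Tlr9het (SE 0.07) and 1.25 in Tlr997 (SE 0.07), and Uvrag, a subunit of an endosomal lipid kinase complex, by 0.84 in Tlr779 (SE 0.10).

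Lrrc25, the least abundant of the 7 per exon length, was at 1.1, 1.33 and 0.90 log2 CPM in unstimulated Tlr9het and at 2.35, 2.30 and 2.13 with CpG. In Tlr997 it was 1.18, 0.34 and 0.60 without and 1.92, 1.55 and 1.01 with CpG, and in Tlr779 0.55, -0.10 and 1.07 without and 2.20, 1.29 and 2.26 with CL097. The groups overlapped in Tlr997 and not in the other genotypes. Lrrc25 rose by a log2 fold change of 1.15 in Tlr9het (SE 0.30, adjusted p = 0.00337), 0.79 in Tlr997 (SE 0.30, adjusted p = 0.0296) and 1.41 in Tlr779 (SE 0.40, adjusted p = 0.0147). The Tlr997 call was lost when low genes were kept (adjusted p = 0.0552), when only the 6 Tlr997 libraries were fitted (adjusted p = 0.108), without replicate 2 or 3 of the unstimulated group (adjusted p = 0.109 and 0.0529) and without replicate 1 or 2 of the CpG group (adjusted p = 0.128 and 0.0713). The Tlr779 call was lost when low genes were kept (adjusted p = 0.0927) and without replicate 1 of the CL097 group (adjusted p = 0.0503).

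Because LRRC25 is known from myeloid cells, the markers of those cells are given beside it. The 8 macrophage and monocyte markers found summed to 215 to 278 CPM in unstimulated Tlr9het and 161 to 171 CPM with CpG, to 128 to 325 and 111 to 202 CPM in Tlr997, and to 185 to 475 and 94.98 to 206 CPM in Tlr779. The 7 neutrophil markers summed to 45.4 to 86.7 and 41.5 to 71.6 CPM in Tlr9het, 37.3 to 138 and 29.5 to 102 CPM in Tlr997, and 32.3 to 80.3 and 20.7 to 53.8 CPM in Tlr779. The 8 dendritic cell markers summed to 41.7 to 44.4 and 74.0 to 87.1 CPM in Tlr9het, 41.2 to 45.0 and 73.7 to 92.9 CPM in Tlr997, and 33.1 to 46.8 and 77.1 to 101.0 CPM in Tlr779. The macrophage sum was lower with agonist in every same-numbered pair of libraries, without overlap of the groups in Tlr9het alone. The dendritic cell sum was higher with agonist in each genotype, and its members differed. Zbtb46 went from 3.91 to 5.71 log2 CPM in Tlr9het, 3.92 to 5.78 in Tlr997 and 3.45 to 5.67 in Tlr779, and Flt3 was also higher in each. Itgax went from 2.58 to 2.13, 2.45 to 2.08 and 2.02 to 1.89, and Siglech from 2.21 to 1.72, 1.51 to 0.70 and 0.99 to 0.27. In each group 2 or 3 of the dendritic cell markers were below 0 log2 CPM in all 3 libraries. Their part in the result was not tested.

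Rela, Isg15, Ddx58 and Sqstm1 were listed as genes linked to LRRC25. Of these 4, 1 rose and 1 fell with CpG in each genotype, and 1 rose and 0 fell with CL097. The study cites LRRC25 as promoting the degradation of p65, a protein effect that mRNA levels do not measure. Isg15, an interferon-induced modifier, rose by log2 fold changes of 2.18 (SE 0.35), 2.09 (SE 0.35) and 2.62 (SE 0.33) in Tlr9het, Tlr997 and Tlr779. Ddx58, which encodes RIG-I, fell by 1.49 in Tlr9het (SE 0.13) and 0.75 in Tlr997 (SE 0.13) and had a log2 fold change of 0.42 in Tlr779 (SE 0.37). Rela, which encodes p65, was not called.

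Compared between the 2 genotypes of the Tlr7-/- arm, 0 of the 7 genes were called by limma without agonist, where 0.0174% of all genes were. An unadjusted p under 0.05 was reached by 0 of the 7 and by 1237 of all 11494 genes. The 95% intervals of the log2 difference, Tlr997 minus Tlr9het, ran from -0.20 to 0.19 for Unc93b1, -0.08 to 0.20 for Cnpy3, -0.18 to 0.08 for Ap3b1, -0.39 to 0.34 for Bloc1s1, -0.35 to 0.21 for Slc15a4, -0.22 to 0.11 for Pikfyve and -1.04 to 0.24 for Lrrc25. With CpG, 0 of 7 were called by limma, where 2.72% of all genes were. An unadjusted p under 0.05 was reached by 2187 of all 11494 genes and by 2 of the 7. One was Pikfyve, which was 0.23 higher in Tlr997 on the log2 scale (95% interval 0.06 to 0.39, adjusted p = 0.115), and whose libraries did not overlap between the genotypes. The other was Lrrc25, at a difference of -0.76 (-1.40 to -0.12, adjusted p = 0.174), again without overlap. The libraries of Cnpy3 did not overlap either, with all values lower in Tlr997, but the gap was only 0.003 on the log2 scale. How many of all genes were without overlap was not worked out, so this is description only. The study itself singled out Lrrc25 from these libraries for this comparison, so its difference here is not independent evidence. It discussed Lrrc25 among genes called higher in Tlr9+/- by voom, at FDR under 0.05 and a log2 fold change over 0.5. Here, limma on the log2 CPM values did not call Lrrc25, at an adjusted p of 0.0596 to 0.457 over the alternatives. The intervals for the others were -0.10 to 0.29 for Unc93b1, -0.20 to 0.08 for Cnpy3, -0.05 to 0.20 for Ap3b1, -0.51 to 0.22 for Bloc1s1 and -0.20 to 0.35 for Slc15a4.

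The CpG response of Tlr997 minus that of Tlr9het was called for 0 of the 7 genes by limma, where 1.54% of all genes were called. It was 0.28 for Pikfyve (95% interval 0.04 to 0.51, adjusted p = 0.228), the only 1 of the 7 with an unadjusted p under 0.05. Of all 11494 genes, 1839 had an unadjusted p under 0.05 here. The interval was -0.17 to 0.37 for Unc93b1, -0.32 to 0.08 for Cnpy3, -0.05 to 0.30 for Ap3b1, -0.63 to 0.40 for Bloc1s1, -0.24 to 0.54 for Slc15a4 and -1.27 to 0.55 for Lrrc25. A difference as large as the required fold lay within the intervals of Bloc1s1, Slc15a4, Pikfyve and Lrrc25.

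Leaving the 7 genes aside, 80 of the 88 listed partners and clients found in the files could be tested. With CpG, 10 rose and 30 fell in Tlr9het and 9 rose and 26 fell in Tlr997, and with CL097 4 rose and 22 fell in Tlr779. Of all genes, 28.2%, 26% and 23.6% were called lower in the same order and 29.7%, 29.6% and 22.7% higher. The partner medians were -0.19, -0.29 and -0.19. Of the 5 tested proteases that process endosomal TLRs, 0 rose and 3 fell in Tlr9het, 0 rose and 4 fell in Tlr997, and 0 rose and 1 fell in Tlr779, where Lgmn was at 0.46. Ctsb, cathepsin B, fell by 1.33 (SE 0.27), 1.3 (SE 0.27) and 1.03 (SE 0.21), the last lost when low genes were kept (adjusted p = 0.0584). Of the 4 tested endosomal nucleases, 4 fell in Tlr9het, 4 in Tlr997 and 3 in Tlr779, with medians of -1.72, -2.31 and -1.63. Rnase6, an endosomal ribonuclease, fell farthest, by 4.01 (SE 0.13), 4.03 (SE 0.13) and 1.96 (SE 0.28).

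Between the genotypes, 2 of the 80 partners were higher and 2 lower in Tlr997 with CpG, and 1 was higher and 0 were lower without it. Tlr7 was higher in Tlr997 in both states, by log2 differences of 1.81 without (SE 0.17, adjusted p = 0.000591) and 1.13 with CpG (SE 0.17, adjusted p = 0.00204), where the chimeric allele itself carries Tlr7 sequence. The first was lost when low genes were kept (adjusted p = 0.0799) and when only the unstimulated groups were fitted (adjusted p = 0.208). Tlr9 was lower in Tlr997 with CpG by 0.70 (SE 0.09, adjusted p = 0.000775), and Ddx58 was higher by 0.74 (SE 0.13, adjusted p = 0.00457, or 0.056 with low genes kept). For Tlr9 the alleles themselves differ, since Tlr997 is homozygous for the chimeric allele and Tlr9het is labelled Tlr9+/-. Pld4, an endolysosomal exonuclease that degrades TLR ligands, was lower in Tlr997 with CpG at a difference of -0.66 (SE 0.13, adjusted p = 0.00874, or 0.0529 with low genes kept).

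Across the 12 libraries of the Tlr7-/- arm, each member was set beside the 11494 genes tested by Pearson's r, as a description in which all genes share the split by CpG. Unc93b1 was most like Ptprcap (0.994), Twsg1 (0.993) and Mknk2 (0.99), Ap3b1 like Msn (0.997), Capzb (0.997) and Arhgap9 (0.996), and Slc15a4 like Dnajc14 (0.997), Arid3a (0.995) and Ergic3 (0.995). Such likeness was common, with 2324, 2625 and 2506 genes over 0.9. Bloc1s1 was most like 2900026A02Rik (0.969), Tram2 (0.963) and 9930012K11Rik (0.955), with 166 genes over 0.9. Pikfyve was most like BC016423 (0.977), Rif1 (0.964) and Mdn1 (0.961), with 70 over 0.9, and Lrrc25 like Fbxo7 (0.966), Susd2 (0.948) and Bcl6 (0.937), with 16. Cnpy3 had 2 genes over 0.9, Ccdc61 (0.925) and Arl6 (0.913), followed by Pcca (0.879).

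Among the members, the r of Unc93b1 was 0.971 with Ap3b1, 0.966 with Slc15a4 and 0.916 with Bloc1s1, and -0.799 with Pikfyve. After each group's mean was removed, which leaves only the spread between replicates, these values were 0.298, 0.308, 0.738 and -0.30, and that of Ap3b1 with Slc15a4 went from 0.968 to -0.599. The likeness of the 4 genes that fell therefore lay between groups for the most part.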

How the data were processed

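RNA sequencing measured B-cell transcripts in 18 libraries. Per the labels and methods, the authors made stranded mRNA libraries, checked and trimmed reads with FastQC 0.11.7 and Trim Galore 0.6.5, aligned them to mm10 with STAR 2.6.1a, counted per gene with featureCounts (Subread 2.0.1), and applied quantile normalization and voom in limma. They deposited 1 file per sample of log2 CPM, without counts, so the precision that depth gives is unknown. Per-library CPM sums were 991992 to 1004412. Voom's added 0.5 counts understates changes of genes near the floor, and among the lowest genes most values depended on the replicate number alone, an adjustment not given in the sources used here. The main fits took no account of such an adjustment. If it was made, their spreads, p-values and intervals may be too small, which was not tested.

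The 7 genes, the partner and marker lists and the tests were chosen with earlier results of these data known. The lists came from general knowledge, and older symbols were matched through RefSeq synonyms. Limma 3.58.1 in R 4.3.3 was fitted with a variance trend and a mean per group, on the 12 libraries of the Tlr7-/- arm or the 6 of the Tlr779 arm, over genes above 0 log2 CPM in at least 3 fitted libraries. Adjustment was by Benjamini-Hochberg over all genes tested, and intervals are 95% from the moderated fit. The script was tested on simulated data with 200 changed genes. All 7 genes were named in every comparison. For partners the rule named the extremes of log2 fold change among called genes, list by list, and the genes in a complex with a member. Not every extreme is printed for every genotype. Other partners were named after their values were seen. The 3 genes with the highest r were named for each member.

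Alternatives were no filter, 1 CPM added before the log, median centring, array quality weights, only the groups compared or all 18 libraries, a replicate block, and leaving out each replicate. To check the pairing, deviations from group means were correlated between same-numbered libraries without and with agonist. They correlated at 0.513, 0.287 and 0.509 in Tlr9het and at 0.252, 0.485 and 0.334 in Tlr779, which were read as pairs. In Tlr997 they correlated at 0.373, 0.083 and 0.025, and pairing is open there. The main fits held only group means, so their p-values and intervals ignore pairing. Among the alternatives, pairing entered only through the replicate block. Whether a number stands for a mouse is not given in the protocol.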

Additional observations from a re-analysis of the deposited data

Results flagged for a closer look

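None of the 7 genes had a CpG response that differed between Tlr997 and Tlr9het by limma's test of the difference itself (1 of 7 at an unadjusted p under 0.05, beside 1839 of all 11494 genes). Among the 80 partner genes tested, 4 did, beside 1.54% of all genes. For Pld4 the response in Tlr997 minus that in Tlr9het was -1.02 (SE 0.18, adjusted p = 0.0117), from falls of 2.17 and 1.15. For Ctsh, cathepsin H, it was -0.63 (SE 0.08, adjusted p = 0.00205), from log2 fold changes of -0.77 and -0.14. For the BORC gene 2310047M10Rik (Borcs6) it was -0.55 (SE 0.11, adjusted p = 0.0225), from -0.37 and 0.19. For Irf5 it was 0.51 (SE 0.10, adjusted p = 0.0171), from -0.38 and -0.90. Over the alternatives the adjusted p of the difference ran from 0.000639 to 0.0124 for Ctsh, 0.00423 to 0.0688 for Pld4, 0.00749 to 0.0763 for 2310047M10Rik and 0.00317 to 0.0752 for Irf5. The Pld4 call was lost when low genes were kept. The Irf5 call was lost then too, with array quality weights (0.46), and without Tlr997 unstimulated replicate 3 (0.46), Tlr997 CpG replicate 1 (0.45), Tlr9het unstimulated replicate 1 or 3 (0.49 and 0.50) or Tlr9het CpG replicate 2 (0.48). The call of 2310047M10Rik was lost without Tlr997 CpG replicate 1 or 3, Tlr9het unstimulated replicate 1 or 2 or Tlr9het CpG replicate 1 or 3, at adjusted p from 0.0526 to 0.0763. Groups of 3 were too small for a check of single outlying libraries.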

How the results depend on the processing

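Under the alternatives, 681 of 707 recomputed log2 fold changes of the 7 genes kept their direction and their side of the thresholds, 9 lost the call, 4 gained it and 13 changed sign. Many alternatives could alter only the p, so direction was fixed in advance for them. These were no filter, the other sets of groups fitted, the replicate block, and leaving out a library from a group outside the comparison. The number of the 7 genes called ran from 4 to 5 in Tlr9het with CpG, from 4 to 6 in Tlr997, from 3 to 4 in Tlr779, and was 0 throughout in the 3 comparisons of Tlr997 with Tlr9het. Lost and gained calls were those of Bloc1s1, Lrrc25 and Pikfyve given with their values above, and the cause was not tested. Sign changes were all among uncalled values near 0. Leaving out 1 replicate at a time, the ranges were -0.0763 to 0.00317 for Cnpy3 in Tlr9het with CpG, -0.00917 to 0.19 for Unc93b1 and -0.28 to 0.048 for Bloc1s1 in Tlr997 against Tlr9het with CpG, and -0.00217 to 0.19 and -0.25 to 0.076 for the same genes in the difference of responses. Without agonist they were -0.0782 to 0.0628 for Unc93b1, -0.10 to 0.0237 for Bloc1s1, -0.21 to 0.0658 for Slc15a4 and -0.12 to 0.0148 for Pikfyve. With array quality weights Unc93b1 without agonist was 0.0363.

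The replicate block changed no call of the 7 genes. It left 5, 5 and 4 of them called in the 3 agonist responses, and for Pikfyve it gave a difference of responses of 0.28 at an adjusted p of 0.047, past the p but under the required fold. Among all genes, those called in the difference of responses went from 177 to 328 under the block, to 377 with array quality weights and to 78 when low genes were kept. Those called between genotypes with CpG went from 313 to 187 when low genes were kept and to 485 with array quality weights. Without agonist they went from 2 to 0 when low genes were kept or only those groups were fitted, and to 4 without Tlr997 unstimulated replicate 2 or 3. For the named partners, 1432 of 1460 recomputed values kept their call and 28 lost it, over 12 of 89 results, and 0 changed sign. Only partners called in the main fit were recomputed, and the alternatives that could alter only the p are counted here too. What depth limits could not be worked out without counts, and Lrrc25 had the widest intervals of the 7.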
